A study of Mus musculus with 2 samples.

Results

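The pentose phosphate pathway and Idh1 were followed in brown adipose tissue, a fat depot that burns fuel for warmth, as a supply route of NADPH, the reducing agent used to build fatty acids. The group comprises 7 genes out of the 16174 listed in the 2 libraries: G6pdx, Pgd, Pgls, Taldo1, Tkt, Rpia and Idh1. They were chosen by name, with earlier results of these data known, and matched by Entrez identifier. The rule that chose them uses no measured value. All 7 were listed in both libraries and passed the filter of at least 1 FPKM (fragments per kilobase of transcript, scaled to library size) in either library.

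RNA sequencing gave 1 library per genotype from female C57BL/6 mice fed chow until 45 weeks of age. The control library had the genotype D3Bfl/fl and the knockout library D3Bfl/fl-UCP1-Cre+/-, in which the promoter of Ucp1, a brown adipocyte gene, drives the Cre recombinase. Both carry the floxed D3B allele, read here as Dnmt3b from knowledge of the study, and only the knockout label names Cre, so effects of Cre itself cannot be told apart from loss of the gene. The libraries held 9666528 and 10068359 expected counts and were run on lane 2 (control) and lane 1 (knockout), and lane cannot be told apart from genotype. Dnmt3b stood at 0.39 FPKM (15 counts) in the control and 0.18 FPKM (7 counts) in the knockout library, too few counts to check the label, since the interval of their ratio, 0.155 to 1.17, included 1. Ucp1, the defining gene of brown adipocytes, had 4987 FPKM (control) and 4271 FPKM (knockout). With 1 library per genotype there was no replicate check and no test. Intervals in the text are 95% counting intervals, which cover counting error only and treat reads copied by PCR as independent molecules.

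In the oxidative branch of the pathway, glucose-6-phosphate dehydrogenase (G6pdx) makes NADPH and a lactone, 6-phosphogluconolactonase (Pgls) opens the lactone, and 6-phosphogluconate dehydrogenase (Pgd) makes NADPH again and releases ribulose 5-phosphate. In the non-oxidative branch, ribose 5-phosphate isomerase (Rpia), transketolase (Tkt) and transaldolase (Taldo1) rearrange these sugars into ribose for nucleotides or back into glycolytic intermediates. Cytosolic isocitrate dehydrogenase (Idh1) lies outside the pathway and makes NADPH from citrate-derived isocitrate. In fat these enzymes work beside malic enzyme (Me1) to feed fatty acid synthase.

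Dnmt3b, the gene read here as floxed, encodes an enzyme that methylates CpG sites. The stretches before the starts of the oxidative branch genes are therefore shown first, with every CpG in capitals. They are the 250 bases before the RefSeq start on the build GRCm38.p6, at chrX:74428881-74429130 on the minus strand for G6pdx, chr4:149166706-149166955 on the minus strand for Pgd (its first listed start) and chr8:71591934-71592183 on the plus strand for Pgls. The expression files used mm9, so these positions serve the sequences alone.
G6pdx: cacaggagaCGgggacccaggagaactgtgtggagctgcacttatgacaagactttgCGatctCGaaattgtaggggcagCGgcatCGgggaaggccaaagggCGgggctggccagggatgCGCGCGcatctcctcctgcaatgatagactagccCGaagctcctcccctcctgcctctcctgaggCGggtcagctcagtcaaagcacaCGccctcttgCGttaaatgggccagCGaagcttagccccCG
Pgd: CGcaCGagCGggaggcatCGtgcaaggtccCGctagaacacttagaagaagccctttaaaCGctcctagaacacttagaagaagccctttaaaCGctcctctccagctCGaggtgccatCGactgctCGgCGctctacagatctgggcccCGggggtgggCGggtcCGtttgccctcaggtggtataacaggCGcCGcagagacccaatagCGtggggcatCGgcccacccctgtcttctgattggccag
Pgls: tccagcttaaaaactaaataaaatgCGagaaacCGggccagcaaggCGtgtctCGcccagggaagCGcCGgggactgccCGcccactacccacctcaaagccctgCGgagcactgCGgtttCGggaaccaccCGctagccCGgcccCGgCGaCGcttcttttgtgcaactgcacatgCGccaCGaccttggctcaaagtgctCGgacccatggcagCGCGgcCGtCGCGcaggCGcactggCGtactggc
These stretches hold 15, 18 and 25 CpG sites. Over the full RefSeq windows, which add 50 bases after the start, G6pdx had 18 CpG sites, Pgd 23 at its first listed start and 9 at its second, Pgls 32, Taldo1 22, Tkt 20, Rpia 24 and Idh1 23 at each of its 2 listed starts. The median over all 32851 windows was 7 and the upper quartile 20. Pgls was the richest of the group, with more CpG sites than 90.5% of windows. Methylation was not measured in these files.

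A search of the same windows on both strands for the E-box CACGTG and for the sterol element core TCACNCCAC found no match in the windows of the 7 genes. These letters occur in 7.15% and 1.24% of all windows. The antioxidant element core TGACNNNGC, present in 12.4% of windows, was found once before the start of G6pdx, as GCTCAGTCA beginning 57 bases before the start, and once just after the second listed start of Pgd. A match is a description of letters and does not show a bound site.

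The levels of the 7 genes lay far apart. Tkt was the most abundant of them, with 919 FPKM (control) and 1156 FPKM (knockout), ranks 111 and 79 among all listed genes. Taldo1 followed at 825 and 906 FPKM. Together these transcripts of the non-oxidative branch made up 72.8% of the group's summed FPKM in the control and 75.5% in the knockout library. Rpia, at 12.97 and 11.95 FPKM, was the least abundant, so that Tkt exceeded it 70.8-fold in the control and 96.7-fold in the knockout library.

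Between these extremes the order of the levels differed between the libraries. In the control library Pgls (211 FPKM, counting interval 201 to 221) stood above Pgd (177, 172 to 183), Idh1 (145, 140.2 to 150.5) and G6pdx (104, 100.3 to 108). In the knockout library Pgd (260, 253 to 267) stood above Idh1 (146, 141 to 151), and Idh1 above Pgls (131, 124 to 139). G6pdx (121, 116 to 125) came next, and its interval overlapped that of Pgls, so these neighbours in the order were not separated by counting error alone. The remaining neighbours in either library had intervals that did not overlap.

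**Figure D1:**
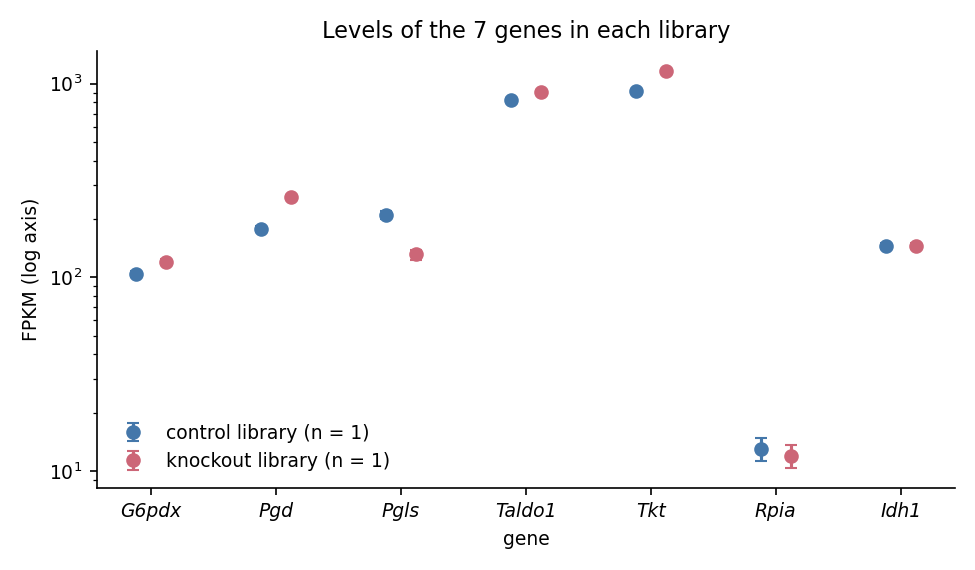
Level of each of the 7 genes in FPKM on a log axis, in the control (blue) and knockout (red) library, 1 library each; bars are 95% Poisson counting intervals, smaller than the point for most genes. Tkt and Taldo1 lie near the top, Rpia lies near 12 FPKM, and Pgd and Pgls change places between the libraries.

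The oxidative branch was not uniformly shifted. Pgd was higher in the knockout library, with 5688 expected counts against 3733, a ratio of FPKM of 1.46 (1.40 to 1.52). G6pdx, the gene of the entry enzyme, was slightly higher, with 3148 counts against 2613 and a ratio of 1.16 (1.10 to 1.22). Pgls went the other way, with 1095 counts against 1689 and a ratio of 0.623 (0.576 to 0.672). The balance of transcripts within the branch therefore differed: per Pgls transcript there were 0.843 Pgd transcripts in the control and 1.98 in the knockout library, on the FPKM scale. The summed FPKM of the branch, 492 and 512, hid these opposite differences.

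In the non-oxidative branch Tkt was higher in the knockout library, with 36784 counts against 28089 and a ratio of 1.26 (1.24 to 1.28). Taldo1 had a ratio of 1.10 (1.07 to 1.13), and Rpia, with 209 counts against 218, a ratio of 0.921 (0.758 to 1.12) whose interval included 1. Rpe, the epimerase that works beside Rpia, had 30.3 FPKM (control) and 30.2 FPKM (knockout). Idh1 hardly differed, with a ratio of 1.003 (0.954 to 1.05).

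A gene was counted as different when the log2 ratio of FPKM + 1 passed 1.5-fold and the counting interval excluded 1. By this rule 1 of the 7 genes, Pgls, was lower, with a log2 ratio of -0.68. None was higher, and none passed 2-fold. Over all 11746 genes compared, 3.41% passed this limit downwards, 4.35% upwards and 7.76% in either direction. As counts these were 401 genes downwards and 511 upwards, or 298 and 678 with both libraries brought to the same summed FPKM. The shares past 2-fold were 0.673% downwards, 0.902% upwards and 1.58% in either direction. The count of 1 in 7 is too small to set the group apart from these shares. Pgd, with a log2 ratio of 0.55, lay just inside the limit and above 94.7% of all genes compared, whereas 2.41% of genes lay below Pgls. The median log2 ratio of the 7 genes was 0.13, against -0.03 over all genes, and 5 of the 7 were above 0, against 45.9% of all genes. Idh1 was among these 5, at 0.004.

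Both outer values, those of Pgd and Pgls, changed when the libraries were rescaled or trends with sequence properties were removed. With the libraries brought to the same summed FPKM, Pgd passed 1.5-fold with a log2 ratio of 0.63 and Pgls remained past it at -0.59. Across 11599 genes with both properties known, which share the same pair of libraries, the log2 ratio had a Spearman's rho of 0.16 against length and of -0.17 against GC content. Pgls had the shortest transcript of the group, 883 bases, and the highest GC content, 65.4% against 43.4% to 54.2% for the others. When the trend with length, GC content and expression was removed, Pgls was at -0.46 and no longer passed 1.5-fold, while Pgd reached 0.61 and did. In both cases their directions stayed opposite.

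Genes with a like length (within 1.3-fold) and a like level (within 2-fold) give a further description. Of 137 such genes for Pgd 2 had a higher log2 ratio, and the median was -0.06. Of 165 for Pgls 2 were lower and 163 were higher, with a median of -0.16. For Tkt all 19 were lower, with a median of -0.02. With a GC content within 5 percentage points required as well, 79 genes remained for Pgd, 1 of them higher than Pgd, and 7 for Pgls, with a median of -0.41 and a lowest value of -0.54. These comparisons and their limits were added after the data were seen, and 3 widths of the length limit were tried, of which the widest is given above. Within 1.2-fold, none of 85 genes was higher than Pgd and none of 115 was lower than Pgls. Within 1.25-fold, the counts were none of 108 and 1 of 147.

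**Figure D2:**
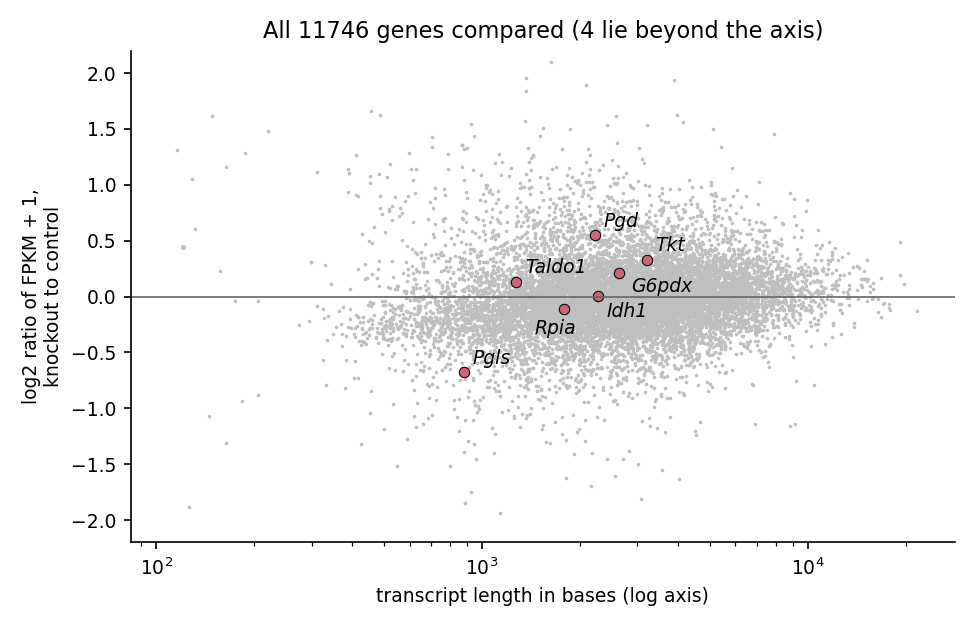
The log2 ratio of FPKM + 1 (knockout to control) against transcript length on a log axis for the 11746 genes compared (grey), with the 7 genes in red; 4 genes lie beyond the vertical axis. Pgls sits low at the short end, at 883 bases and -0.68, and Pgd sits near the upper edge of the dense cloud, at 0.55.

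The expected counts of all 7 genes were whole to within 0.05, with no sign of reads divided with near-identical copies, and G6pd2, the retrogene copy of G6pdx, was listed in neither library. In the GENCODE M21 annotation an exon of Ikbkg on the opposite strand overlaps one of G6pdx, and strand is not stated for these counts. Ikbkg had 8.61 FPKM (control) and 8.62 FPKM (knockout). An exon of Niban3 (listed there as Fam129c) overlaps one of Pgls on the same strand, and Niban3 was at 0.85 and 0.33 FPKM. The part of reads over these shared exons in the values of G6pdx and Pgls was not tested.

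Among the other genes listed as makers of NADPH, Me1 stood apart from the rest by size. How far each listed enzyme uses NADP rather than NAD was not examined. Of the 10 tested genes among 11 listed, 1 was at least 1.5-fold higher and none lower, with a median log2 ratio of -0.08. Me1, the cytosolic malic enzyme, was the one that passed, with 123 FPKM (control) and 210 FPKM (knockout) and a ratio of 1.71 (1.64 to 1.78). The folate enzymes Aldh1l1 and Mthfd1, which can also make cytosolic NADPH, had ratios of 1.06 (0.972 to 1.15) and 0.905 (0.783 to 1.04). In mitochondria, Idh2 had 598 FPKM (control) and 479 FPKM (knockout), which gives a ratio of 0.802 (0.778 to 0.826). Me3 had a ratio of 0.746 (0.671 to 0.828) and Glud1, glutamate dehydrogenase, 0.842 (0.802 to 0.883), while Me2, at 4.12 and 5.70 FPKM, had 1.38 (1.06 to 1.81). The intervals of Mthfd2, with a ratio of 1.27 (0.841 to 1.92), Mthfd2l, with 0.790 (0.545 to 1.14), and Nnt, with 0.973 (0.614 to 1.58), included 1.

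Summed over 6 cytosolic producers (G6pdx, Pgd, Idh1, Me1, Mthfd1 and Aldh1l1), the level was 599 FPKM (control) and 786 FPKM (knockout), a ratio of 1.31. Over 8 genes listed as mitochondrial producers it was 749 and 608 FPKM, a ratio of 0.812. Idh2 carried most of that sum, with 598 of the 749 FPKM and 479 of the 608 FPKM. By FPKM, Pgd was the largest cytosolic item in both libraries, with 29.6% of the sum in the control and 33.0% in the knockout library. Me1 went from 20.5% to 26.7%, Idh1 from 24.3% to 18.5% and G6pdx from 17.4% to 15.3%. The joint share of the pathway's NADPH makers, G6pdx and Pgd, was 47.0% and 48.4%, a difference of 1.37 percentage points. By expected counts instead, Me1 was the largest item, with 25.8% (control) and 33.2% (knockout), against 25.3% and 27.8% for Pgd. Among the isocitrate dehydrogenases, the FPKM of Idh2 was 4.11 times that of Idh1 in the control and 3.29 times in the knockout library. These sums describe transcripts and carry no measure of enzyme activity or flux.

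**Figure D3:**
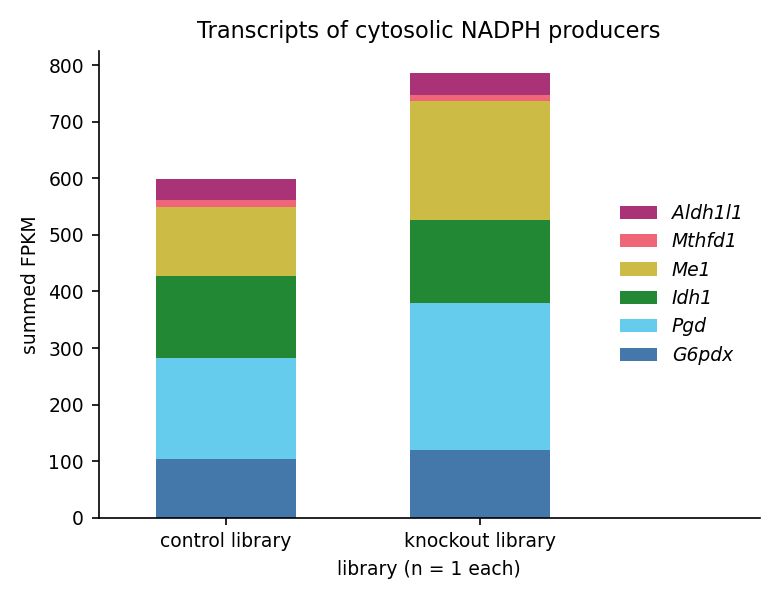
Stacked FPKM of the 6 cytosolic NADPH producers in each library (1 library per bar). The bar is taller in the knockout library, 786 against 599 FPKM, with Pgd and Me1 giving most of the added height and Idh1 the same height in both.

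**Figure D4:**
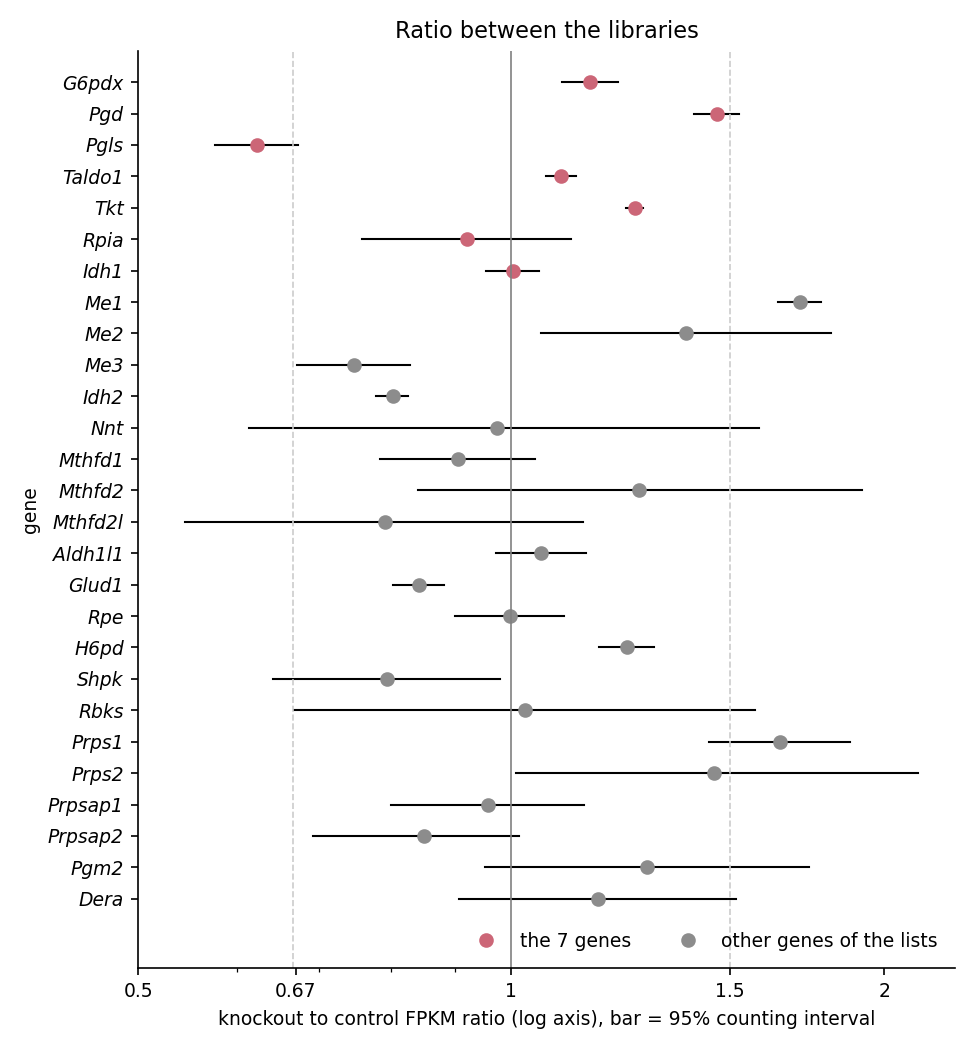
Knockout to control ratio of FPKM on a log axis for the 7 genes (red) and for the 20 tested genes of the lists of other NADPH producers and other pentose phosphate genes (grey), with 95% counting intervals; dashed lines mark 1.5-fold in either direction. Pgls is the one point below the lower line, Me1 and Prps1 lie above the upper line, and Pgd and Prps2 lie just inside it.

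Other genes tied to the pentose phosphates had levels below those of the 7 genes, apart from Rpia. H6pd, Rpe, Prps1 and Prpsap1 exceeded Rpia in both libraries, and Prpsap2 did so in the control library alone. Of the 13 on this list 11 were listed and 10 tested, 1 was at least 1.5-fold higher and none lower, and the median log2 ratio was 0.12. Prps1, which turns ribose 5-phosphate into the activated ribose of nucleotide synthesis, had 19.4 FPKM (control) and 31.96 FPKM (knockout), a ratio of 1.65 (1.44 to 1.88). Its counts were not whole, so part of its reads were divided with other genes. H6pd, which carries out the first oxidative steps inside the endoplasmic reticulum, had 72.2 FPKM against 58.2 FPKM and a ratio of 1.24 (1.18 to 1.3). Its level was 0.559 of that of G6pdx in the control and 0.599 in the knockout library. Shpk, which makes sedoheptulose 7-phosphate, had a ratio of 0.793 (0.642 to 0.979). The transketolase-like genes were nearly silent, with Tktl1 at 0.04 FPKM (control) and not listed in the knockout library, and Tktl2 listed in neither.

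Glucose enters the pathway after phosphorylation by hexokinase. Of 11 tested genes of glucose entry and upper glycolysis 9 had a log2 ratio above 0, none passed 1.5-fold and the median was 0.23. Slc2a1, a glucose transporter of many cell types, differed most in size, with 2.91 FPKM (control) and 4.21 FPKM (knockout) and a ratio of 1.45 (1.06 to 1.98). Hk2, the insulin-responsive hexokinase, had a ratio of 1.26 (1.21 to 1.32), Gpi1, which competes with G6pdx for glucose 6-phosphate, 1.26 (1.23 to 1.3), and Aldoa, aldolase, 1.29 (1.27 to 1.31). Slc2a4, the insulin-responsive glucose transporter, had 122 FPKM (control) and 125 FPKM (knockout), and Pfkm, the muscle-type phosphofructokinase, had a ratio of 0.794 (0.734 to 0.871).

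Lipid synthesis draws on NADPH, and its list holds enzymes that spend NADPH together with others of the same routes. Of its 16 tested genes 3 passed 1.5-fold upwards (Fasn, Elovl3 and Nsdhl) and none downwards, with a median log2 ratio of 0.25. Of these 3, Elovl3 is a condensing enzyme of chain elongation and Nsdhl a sterol dehydrogenase, neither of which consumes NADPH. Fasn, which uses NADPH in every round of chain growth, had 803 FPKM (control) and 1463 FPKM (knockout), a ratio of 1.82 (1.81 to 1.84). Its level was 4.52 times that of Pgd in the control and 5.63 times in the knockout library. On the supply side of the same route, the citrate and malate shuttle had 2 of 10 genes at least 1.5-fold higher and none lower, with a median of -0.03. These were Acly, which splits citrate, with a ratio of 1.86 (1.81 to 1.91), and the carrier Slc25a10 with 1.83 (1.63 to 2.05). The citrate carrier Slc25a1 had a ratio of 1.42 (1.35 to 1.48).

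**Figure D5:**
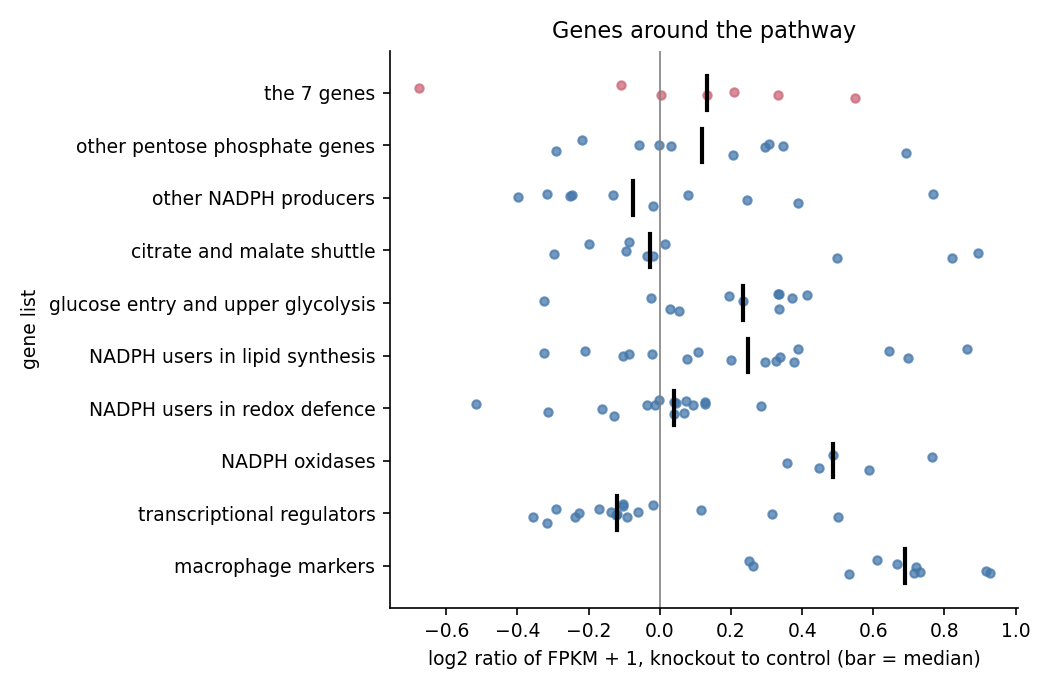
Log2 ratio of FPKM + 1 (knockout to control) for each tested gene of 10 lists; each point is a gene, the vertical offset within a list is arbitrary, and the black bar is the list's median. The 7 genes (red) spread from -0.68 to 0.55, the NADPH oxidase and macrophage lists lie wholly above 0, and most regulators lie slightly below 0.

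Regulators of these routes were listed together, transcription factors along with partners and modulators such as Scap, Keap1, Thrsp and Tigar. Of the 17 genes 14 had a log2 ratio below 0, none passed 1.5-fold and the median was -0.12. Srebf1, a driver of lipid synthesis genes, had a ratio of 0.916 (0.860 to 0.974), and Mlxipl, the glucose-sensing ChREBP, 0.907 (0.857 to 0.960). Nfe2l2, which encodes NRF2, the activator of oxidant defence and of several pentose phosphate genes, was at 30.9 and 30.5 FPKM. Foxo1 had a ratio of 1.44 (1.32 to 1.57) and Bach1, a repressor of NRF2 targets, 1.29 (1.11 to 1.503). Tigar, a phosphatase that favours the pentose phosphate route over glycolysis, had 0.95 (0.761 to 1.18). Among 14 genes of the NRF2 response 4 were at least 1.5-fold higher and none lower, with a median of 0.22; Nqo1 was tested through the knockout library alone. The 4 were the glutathione transferase Gsta3 with a ratio of 4.07 (3.07 to 5.34), Me1, Ephx1 with 1.61 (1.40 to 1.85) and the cystine carrier Slc7a11 with 1.60 (1.49 to 1.72), whereas Txnrd1 had 0.999 and Srxn1 1.03.

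NADPH also feeds the NADPH oxidases, among them the oxidase of phagocytes. The list of 8 genes holds Nox1, Nox4, Duox1 and Duox2 beside the phagocyte genes. Of the 8 genes 5 were tested, among them Nox4 through the knockout library alone. These 5 had log2 ratios above 0, with a median of 0.49. The 2 that passed 1.5-fold were the subunits Ncf1 and Cyba, with ratios of 2.09 (1.46 to 3.03) and 1.52 (1.25 to 1.86). The level of Ncf1 was low, at 1.78 and 3.72 FPKM. Macrophage markers moved with them: all 10 were above 0 and 7 passed 1.5-fold. Among the 10 was Fcgr1 (0.73 and 1.06 FPKM), which was tested through the knockout library alone. No marker was at 0, and the summed level of the 10 was 239 FPKM (control) and 385 FPKM (knockout). Lyz2 carried most of that sum, with 194 FPKM (control) and 309 FPKM (knockout). Its counts were not whole, so part of its reads were divided with other genes.

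Markers of other cells in the tissue differed too, and in bulk tissue fewer cells of a type and less RNA per cell cannot be told apart. Fibroblast markers had 7 of 8 genes above 0 and summed to 353 and 546 FPKM, and endothelial markers had 7 of 8 below 0 and summed to 238 and 160 FPKM. Brown adipocyte markers had 9 of 10 below 0, among them Zic1, tested through the control library alone, with sums of 18735 and 14605 FPKM. The exception was Elovl3, which passed 1.5-fold upwards with a ratio of 1.65 (1.46 to 1.87). General adipocyte markers had 5 of 8 below 0, with sums of 25704 and 23004 FPKM. Fabp4 carried most of these sums, with 20164 and 18614 FPKM, while the log2 ratios of the list ran from -1.75 to 0.99. Red blood cell markers summed to 7563 and 7414 FPKM. Skeletal muscle markers summed to 2.82 and 3.36 FPKM, with Ckm listed in neither library, and lymphocyte and granulocyte markers to 8.05 and 14.8 FPKM, with Cd3e not listed in the knockout library. The part of these differences in the values of Pgd, Pgls, Tkt and the other enzymes was not tested.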

How the data were processed

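Per the labels' protocols, poly(A) RNA of frozen tissue was fragmented, copied into cDNA and amplified. The authors deposited an expected count, in which reads matching several genes are divided, and an FPKM value per gene, per the file headers. RSEM (no version) and mm9 are named in the submitters' processing notes, while the sources used here name no aligner. Genes absent from a list were given the value 0. Entrez identifiers were matched to symbols through a RefSeq table of GRCm38.p6.

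The 7 genes and all 23 lists were chosen with earlier results of these data known. Values are FPKM ratios; log2 ratios use FPKM + 1. Each ratio has an exact (conditional Clopper-Pearson) interval, computed from counts rounded to whole numbers and scaled to library size. A count of 3 was worth 0.310 CPM in the control and 0.298 CPM in the knockout library. GC content was known for 98.7% of tested genes, from GENCODE M21 transcripts. The named genes were the 7, up to 4 per list with the largest absolute log2 ratio, and any of the pathway, NADPH producer and regulator lists. Slc2a4, Pfkm, Fcgr1, Nqo1, Txnrd1, Srxn1, Ikbkg, Niban3, Nadk, Nadk2 and Gsr were chosen after their values were seen. Python 3.11.15 with pandas 2.3.3 and scipy 1.17.1 was used. The rule was tried at 2-fold, and not at 1.5-fold, on simulated counts. Those counts held counting error only, so they cannot show how the rule fares with differences between animals or libraries. Alternatives covered pseudocounts, filters, units, scalings and trends. A further listed gene is not reported here.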

Additional observations from a re-analysis of the deposited data

How the results depend on the processing

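The opposite directions of Pgd and Pgls held under every setting tried: the log2 ratio of Pgd ranged from 0.54 to 0.64 and that of Pgls from -0.68 to -0.46. The count of the 7 genes past 1.5-fold upwards went from 0 to 1 (Pgd) with the same FPKM total, with the same total without the 20 most abundant genes, and with the trend of length, GC content and expression removed, an alternative added after the data were seen. That last setting brought the count past 1.5-fold downwards from 1 to 0 (Pgls). With the trend of length and expression removed but not that of GC content, Pgls was at -0.61 and this count stayed at 1. Idh1 lay between -0.0065 and 0.09.

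Over all genes the counts past 1.5-fold, 511 upwards and 401 downwards, depended on pseudocount, unit and filter. With a pseudocount of 5 they were 136 and 107, in CPM 831 and 677, and with a mean of at least 5 FPKM 221 and 191. With a pseudocount of 0.1 they were 747 and 618. Past 2-fold the main counts of 106 and 79 became 281 and 196 with a pseudocount of 0.1, 15 and 14 with 5, 224 and 155 in CPM, and 42 and 27 with a mean of at least 5 FPKM. With the same FPKM total the counts past 1.5-fold were 678 upwards and 298 downwards. Of the genes in the 10 pathway lists 12 passed 1.5-fold upwards, and 7 did with a pseudocount of 5. The joint share of G6pdx and Pgd differed by 1.37 percentage points, by 0.23 with expected counts and by 6.87 without Me1. The filter on mean FPKM leaves fewer genes to count; for the other changes, that of Pgls included, the cause was not tested. With 1 library per genotype, depth limits Rpia, whose interval included 1, and low genes such as Rbks, at 4.68 and 4.80 FPKM with an interval of 0.668 to 1.57. No paired analysis was possible because each genotype has 1 library.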

Other observations

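Genes of NADP supply and of oxidant defence were not described above. NADP is made from NAD by NAD kinase, and Nadk had 101 FPKM (control) and 98.1 FPKM (knockout), while its mitochondrial relative Nadk2 was at 15.6 and 15.8 FPKM. Of 8 tested genes of this list 6 had a log2 ratio below 0 and none passed 1.5-fold, with a median of -0.19. Nmnat1, which makes NAD in the nucleus, was the lowest, with a ratio of 0.668 (0.488 to 0.908). Among 16 genes of oxidant defence and related use of NADPH, with Nqo1 tested through the knockout library alone, none passed 1.5-fold, and the median was 0.04. Blvrb, a biliverdin reductase, had the lowest value, a ratio of 0.695 (0.610 to 0.789), and Gsr, which regenerates glutathione, stood at 10.01 and 9.73 FPKM.

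Nnt, the mitochondrial transhydrogenase that makes NADPH from NADH, had 38 counts (1.13 FPKM) in the control and 39 counts (1.10 FPKM) in the knockout library. Some C57BL/6 substrains are known to carry a deletion in this gene. The labels do not name the substrain, and the files give no reads over single exons.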
